A study of Mus musculus with 18 samples.

Results

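The comparison described here asked whether the transcriptional response of macrophages to 4 h of lipopolysaccharide (LPS) depended on the histone methyltransferase gene Wbp7. It used 12 of the 18 arrays of the series, chosen by their labels: 3 arrays each of KO (Wbp7-/-) cells given LPS for 4 h, KO cells left untreated, HET (Wbp7+/-) cells given LPS for 4 h and HET cells left untreated. For each replicate number within a genotype, the untreated signal was subtracted from the 4 h signal, which gave 3 KO responses and 3 HET responses for each of 21137 probe sets with a single gene (19475 genes), and the KO responses were compared with the HET responses. All cells were bone marrow-derived macrophages on day 7 of differentiation, grown in L929-conditioned medium, and the LPS dose was 10 ug/ml. The mice had a largely C57BL/6 background with a small share of 129/Ola. The HET cells that served as controls lacked 1 Wbp7 allele themselves, and no wild-type cells were among the arrays. The age and sex of the mice, how the allele was made, and whether replicates of a group came from separate animals or cultures are not stated in the labels, so that the p-values measure only the spread between these samples, which may be technical.

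Wbp7, listed on the array under its current symbol Kmt2b, encodes an enzyme that methylates lysine 4 of histone H3, a mark of active promoters, and that carries a CXXC domain which binds unmethylated CpG dinucleotides. LPS is a component of the outer membrane of Gram-negative bacteria; it is handed by the GPI-anchored co-receptor Cd14 to Tlr4, which signals through NF-kB and MAP kinases to cytokine genes and through Irf3 and type I interferon to a later set of target genes. While macrophages carry out this programme, they also reduce the expression of genes for growth, cell division, ribosome production and sterol synthesis.

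The macrophage markers Csf1r, Adgre1, Cd68, Itgam, Lyz2 and Fcgr1 were at or above percentile 94.8 of signal on all 12 arrays. The markers of other cell types were mostly dim: 13 of 16 lymphocyte, 10 of 12 dendritic cell, 8 of 11 erythroid and megakaryocyte and 9 of 10 mast cell markers lay below the median signal, against 7 of 18 neutrophil and 6 of 15 stromal markers. In such bulk samples, fewer cells of a type and less RNA per cell cannot be told apart. Kmt2b itself had signals of 10.35, 10.41 and 10.47 in untreated KO cells and 10.97, 10.49 and 10.51 in untreated HET cells, and of 9.94, 10.21 and 10.09 in KO and 10.32, 10.05 and 10.14 in HET at 4 h. The KO arrays were thus only slightly lower without LPS and overlapped the HET arrays at 4 h; the part of the gene that its probe set reads was not looked up here. Within a genotype, the untreated and 4 h arrays of the same replicate number strayed from their group means in the same direction (r of the deviations 0.42 to 0.62 across probe sets), and the number was therefore read as a culture; the labels do not state it. The HET culture numbered 1 stood apart, with 1834 probe sets at least 2-fold lower after LPS, against 1047 and 1034 in the other two HET cultures, and values without it are given beside list counts and medians that it moves by over 1.5 times.

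The difference in response passed an adjusted p of 0.05 for 10 of the 21137 probe sets (0.0473%; limma on the 6 responses, Benjamini-Hochberg adjustment over all probe sets). In 1 of them (0.00473%), Sesn1, the KO response was higher, which for this gene was a smaller reduction. In 9 (0.0426%) it was lower: Gnb4, Lhx2, Rasgrp1, Cysltr2, Abtb2, Hap1 and Slc37a3, and a pair of probe sets of A530040E14Rik with identical values. These genes encode a stress-induced regulator of growth signalling (Sesn1), a subunit and a receptor of G-protein signalling (Gnb4, Cysltr2), an activator of Ras (Rasgrp1) and a homeodomain transcription factor (Lhx2), among others. At an unadjusted p under 0.05, 1849 probe sets were higher (8.75%) and 1265 lower (5.98%) in KO; these shares are the background for the gene lists, in which higher and lower mean a difference in response in KO at that unadjusted p. Of all list members, Sesn1 was the only one called. The 3 KO and 3 HET responses did not overlap for 2529 probe sets that were higher (12%) and 2324 that were lower in KO (11%), 23% in all.

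The promoters of a few of these genes are shown because the CXXC domain of the enzyme reads CpG, and because the windows of the called genes held from 1 to 34 CpG. Each window runs from 250 bases before to 50 bases after a RefSeq transcript start (GRCm38.p6), is written 5′ to 3′ on the gene's strand, and has every CpG in capitals. The windows belong to Sesn1 (its second start, chr10:41887189-41887488, plus strand, 31 CpG), Lhx2 (its first start, chr2:38339031-38339330, plus strand, 34 CpG), Rasgrp1 (chr2:117342828-117343127, minus strand, 26 CpG) and Cysltr2 (chr14:73049065-73049364, minus strand, 3 CpG).
Sesn1: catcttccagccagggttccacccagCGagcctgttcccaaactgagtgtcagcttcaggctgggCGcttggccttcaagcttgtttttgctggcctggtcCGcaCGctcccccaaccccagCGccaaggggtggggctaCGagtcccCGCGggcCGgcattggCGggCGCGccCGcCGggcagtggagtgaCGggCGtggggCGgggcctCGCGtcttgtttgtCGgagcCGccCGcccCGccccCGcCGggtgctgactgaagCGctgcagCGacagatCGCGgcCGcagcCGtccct
Lhx2: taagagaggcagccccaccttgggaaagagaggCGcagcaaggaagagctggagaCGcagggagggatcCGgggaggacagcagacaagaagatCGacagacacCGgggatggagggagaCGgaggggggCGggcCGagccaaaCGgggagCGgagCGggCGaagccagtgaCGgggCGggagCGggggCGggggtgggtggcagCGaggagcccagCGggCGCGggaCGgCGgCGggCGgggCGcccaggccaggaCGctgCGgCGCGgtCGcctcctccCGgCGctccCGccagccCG
Rasgrp1: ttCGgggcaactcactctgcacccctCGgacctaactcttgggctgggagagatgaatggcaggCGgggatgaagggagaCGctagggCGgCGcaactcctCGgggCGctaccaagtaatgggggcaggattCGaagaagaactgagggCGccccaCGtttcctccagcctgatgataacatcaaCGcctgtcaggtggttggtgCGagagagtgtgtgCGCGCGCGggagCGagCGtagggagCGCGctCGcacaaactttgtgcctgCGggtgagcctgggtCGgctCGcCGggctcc
Cysltr2: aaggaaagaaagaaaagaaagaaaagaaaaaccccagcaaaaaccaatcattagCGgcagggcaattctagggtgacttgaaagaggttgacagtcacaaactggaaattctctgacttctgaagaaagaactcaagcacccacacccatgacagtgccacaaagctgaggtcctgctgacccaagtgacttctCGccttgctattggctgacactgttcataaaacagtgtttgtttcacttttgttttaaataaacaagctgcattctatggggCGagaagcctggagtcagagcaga

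The median over the windows of all genes tested was 15 CpG (18996 windows, for 15456 of the 19475 genes). Among the called genes with a window, A530040E14Rik held 1 CpG and Cysltr2 3, while Abtb2 held 21, Hap1 16 and 17 at its starts, and Slc37a3 17 and 30. The starts of Sesn1 and Lhx2 that are not shown held fewer CpG than those shown, 24 and 29. Gnb4 had no window. The Cysltr2 window was the sparsest in CpG of the 4 shown, and its gene, like Rasgrp1 and Lhx2, had the smaller response in KO. Among genes that LPS raised at least 2-fold, the windows of those with a lower KO response (unadjusted p under 0.05) had a median of 15 CpG and the others 11. Among genes that LPS lowered at least 2-fold, the medians were 21 for those with a higher KO response and 20 for the others. Of 4 motifs searched on both strands, the interferon-stimulated response element was in 6.9% of the windows of raised genes with a lower KO response, in 13.5% of those of the other raised genes and in 3.26% of the windows of all genes tested. An NF-kB motif was in 2.16% (5 of 232), 4.29% (22 of 513) and 1.39% of the same windows, the AP-1 letters TGANTCA in 8.62%, 9.75% and 6.86%, and the E-box CACGTG in 6.03%, 7.8% and 8.26%. For the raised genes, the shares of the interferon-stimulated response element rested on 16 and 69 windows. A gene could hold several windows. These groups were formed from the measured responses and are described without a test.

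Sesn1, sestrin 1, is a p53 and FoxO target that restrains the growth kinase mTORC1. Its signal at 4 h of LPS was 10.05, 10.39 and 10.58 in KO cells, against 7.48, 8.21 and 8.24 in HET cells, on the log2 scale of the array. Without LPS it was 12.02, 12.34 and 12.36 in KO cells, against 11.61, 11.99 and 12.27 in HET cells. All 3 KO cultures thus kept a signal at 4 h above every HET culture, while the untreated arrays overlapped. The response was −1.90 ± 0.11 in KO and −3.98 ± 0.18 in HET (SD, n = 3 each), a difference of 2.08 (SE 0.12, adjusted p = 0.00536 by limma). At 2 h the same difference was 1.82 with an adjusted p of 0.23, the 2 h response sharing its untreated arrays with the 4 h response. Leaving out KO culture 1 or KO culture 3 ended the call, with an adjusted p of up to 0.105. So did the fits that did not pair the arrays by culture (0.097 with 12 arrays and 0.485 with 18), that paired numbers across genotypes (0.11) or that took all 18 arrays with culture as a term (0.0501), with the difference at 2.08 in each.

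Gnb4, a beta subunit of heterotrimeric G proteins, reached 8.50, 7.64 and 8.39 at 4 h in KO cells, against 11.24, 11.23 and 10.80 in HET cells. The untreated signals were 7.32, 6.93 and 6.88 in KO and 7.83, 8.0 and 7.80 in HET, so that the gene started lower in KO and diverged further. Its response was 1.14 in KO and 3.21 in HET, a difference of −2.08 (SE 0.21, adjusted p = 0.0437 by limma). Lhx2, a LIM-homeodomain transcription factor, had untreated signals that differed by 0.08 on average, with 7.91, 7.84 and 7.84 in untreated KO cells and 7.84, 7.78 and 7.73 in untreated HET cells. At 4 h it stood at 9.40, 8.57 and 9.28 in KO and at 11.18, 10.89 and 11.03 in HET. Every HET culture exceeded every KO culture by more than 1 log2 unit, and the difference in response was −2.03 (SE 0.20, adjusted p = 0.0437 by limma).

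Rasgrp1, a diacylglycerol-regulated exchange factor that activates Ras, was at 9.53, 8.99 and 9.89 after 4 h in KO and at 11.76, 11.13 and 11.23 in HET. Before LPS it was at 7.33, 7.01 and 7.21 in KO and 7.47, 7.22 and 7.18 in HET. LPS raised the gene in all 6 cultures, by 2.21, 1.98 and 2.68 in KO and by 4.29, 3.91 and 4.05 in HET, a difference of −1.79 (SE 0.19). For Rasgrp1 and Abtb2 the difference in the 2 h response passed the test as well, at −1.61 (adjusted p = 0.00715, limma) and −1.45 (adjusted p = 0.0266). Abtb2, which encodes an ankyrin repeat and BTB domain protein, had 4 h signals of 10.63, 10.62 and 10.62 in KO and 12.46, 11.79 and 11.92 in HET. Its untreated level differed by −0.00118 on average, and its 4 h response by −1.43 (SE 0.13).

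Cysltr2, Hap1 and Slc37a3 had mean KO responses under 1 log2 unit. Cysltr2, a receptor for cysteinyl leukotrienes, stood at 5.68, 5.29 and 5.79 at 4 h in KO and at 7.51, 7.19 and 7.41 in HET, against untreated signals of 4.88, 4.58 and 4.86 in KO and 5.03, 5.07 and 5.04 in HET. It was a dim probe set, at the 7.34th percentile of mean signal, and was not tested when dim probe sets were left out. Hap1, the huntingtin-associated protein of vesicle transport, responded by 0.44, 0.29 and 0.41 in KO and by 1.70, 1.31 and 1.59 in HET. Slc37a3, a member of a family of sugar-phosphate transporters, responded by −0.16, −0.26 and −0.07 in KO and by 0.79, 0.69 and 0.75 in HET, so that the sign of its response differed between the genotypes in all 6 cultures. A530040E14Rik, a gene model without an established name, responded on its called pair by 2.86, 2.77 and 2.74 in KO and by 4.08, 3.79 and 3.77 in HET. Its brightest probe set, outside the pair, differed by −1.01 and did not pass (adjusted p = 0.168, limma with 1 probe set per gene).

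**Figure D1:**
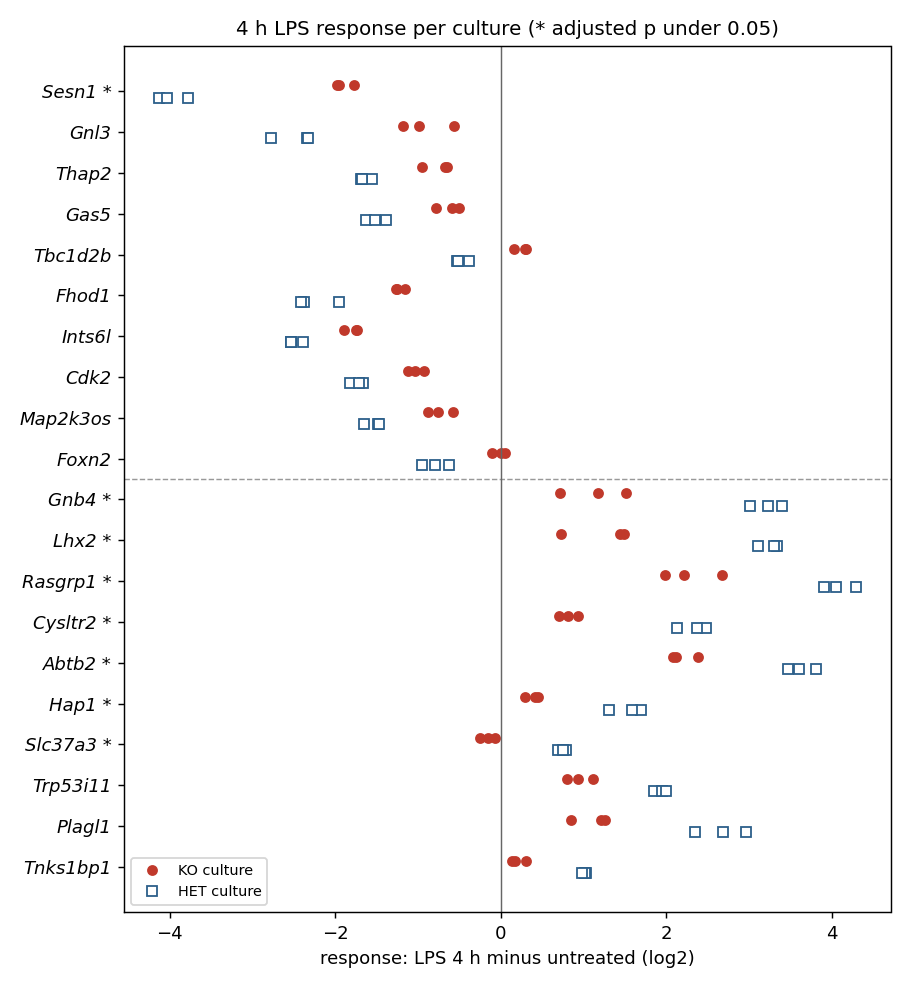
4 h LPS response (LPS 4 h minus untreated, log2) of each culture, KO in filled circles above HET in open squares, for the 10 genes ranked highest and the 10 ranked lowest by the naming rule; an asterisk marks an adjusted p under 0.05. The KO and HET cultures do not overlap for any of the 20 genes, and the KO responses lie nearer 0 than the HET responses for all 20.

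The other genes of the ranking did not pass the test, and their values follow. Gnl3, the nucleolar GTPase nucleostemin, was at 9.15, 9.95 and 9.56 after 4 h in KO and at 8.17, 8.19 and 8.22 in HET, having been at 10.33, 10.51 and 10.56 in untreated KO cells and 10.94, 10.52 and 10.55 in untreated HET cells. Its difference in response was 1.57 (SE 0.19, adjusted p = 0.0606, limma). The others with a higher response in KO were Thap2, Gas5, a host of small nucleolar RNAs, Tbc1d2b, the formin Fhod1, Ints6l, the cell cycle kinase Cdk2, Map2k3os and Foxn2, with differences of 0.70 (Ints6l) to 1.02 (Fhod1) and adjusted p between 0.0664 and 0.0958. On the lower side Trp53i11, the zinc-finger factor Plagl1 and Tnks1bp1 followed, at −0.98, −1.57 and −0.81, each with an adjusted p of 0.057. Under an adjusted p of 0.1 there were 40 probe sets, 13 of them higher and 27 lower in KO.

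**Figure D2:**
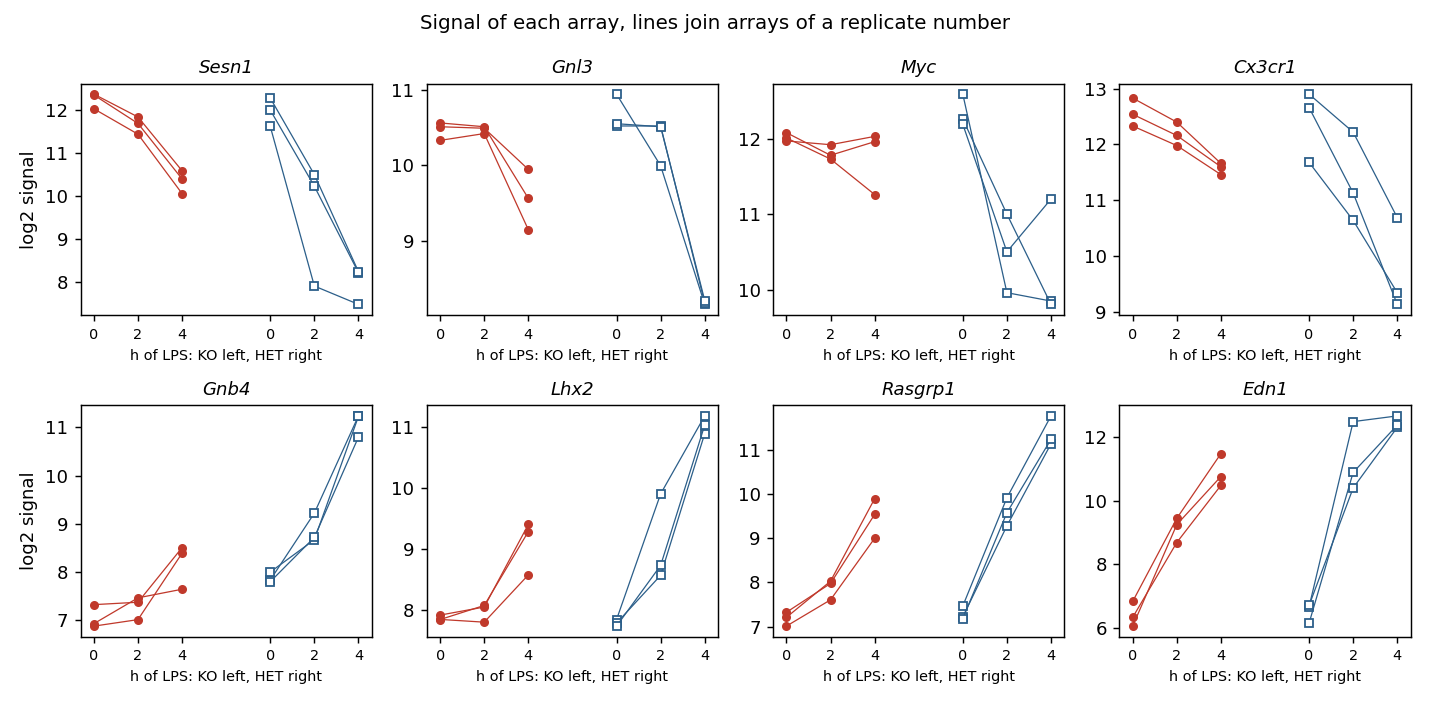
Log2 signal of every array at 0, 2 and 4 h of LPS for 8 named genes, KO in filled circles at the left of each panel and HET in open squares at the right, with lines joining arrays of the same replicate number. Sesn1 and Gnl3 are higher in KO than in HET at 4 h in all 3 cultures, as Gnb4, Lhx2, Rasgrp1 and Edn1 are lower; each panel has its own vertical axis, which does not start at 0.

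The difference between the genotypes was also seen in the size of the response as a whole. Tested within each genotype, the 4 h response passed for 5137 probe sets in KO (24.3%) and 10827 in HET (51.2%). These counts hold responses of any size and include HET culture 1. The median response over all probe sets was 0.0199 in KO and 0.0797 in HET, so that small shifts enter the counts. Averaged over both genotypes, LPS raised 779 probe sets at least 2-fold (3.69%, adjusted p under 0.05 by limma) and lowered 697 (3.3%). Over the raised probe sets, the median response was 1.55, 1.33 and 1.52 in the KO cultures, against 1.86, 1.73 and 1.64 in the HET cultures. Over the lowered probe sets it was −1.14, −0.93 and −1.06 in KO, against −1.70, −1.48 and −1.44 in HET. In both classes every KO culture responded less than every HET culture. The differences were −0.281 for raised and 0.495 for lowered probe sets, each with p = 0.1 in a two-sided exact permutation test, the smallest p that 3 cultures against 3 allow. Without HET culture 1 the differences were −0.226 (exact p = 0.2) and 0.409 (exact p = 0.1), and the cultures still did not overlap.

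**Figure D3:**
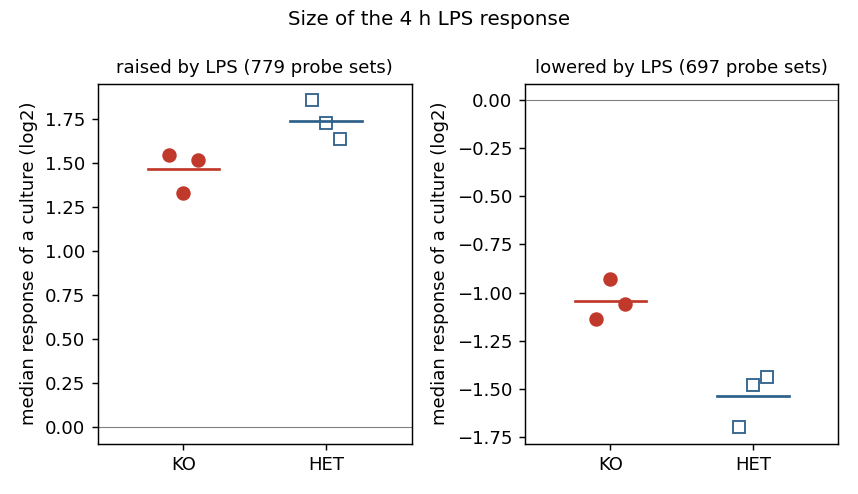
Median 4 h response (log2) of each culture over the 779 probe sets raised and the 697 lowered at least 2-fold on average, KO in filled circles at the left and HET in open squares at the right, with bars at the mean of 3 cultures. The KO cultures lie nearer 0 than the HET cultures in both panels, with no overlap.

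The lowered probe sets differed more often than the raised ones. Of the 697 lowered, 371 had a higher response in KO at an unadjusted p under 0.05 (53.2%) and 2 a lower one (0.287%), against 8.75% and 5.98% of all probe sets. Of the 779 raised, 246 had a lower response in KO (31.6%) and 49 a higher one (6.29%). Without HET culture 1, 62.3% of the lowered probe sets were higher in KO and 30.1% of the raised ones were lower. The classes were formed from the same arrays as the difference, and these shares are given as a description. The probe sets that were neither raised nor lowered 2-fold differed less often, at 7.27% higher and 5.17% lower. Of the called probe sets, 7 were among those raised, Sesn1 was among those lowered, and Hap1 and Slc37a3, whose average response was under 2-fold, were in neither class.

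**Figure D4:**
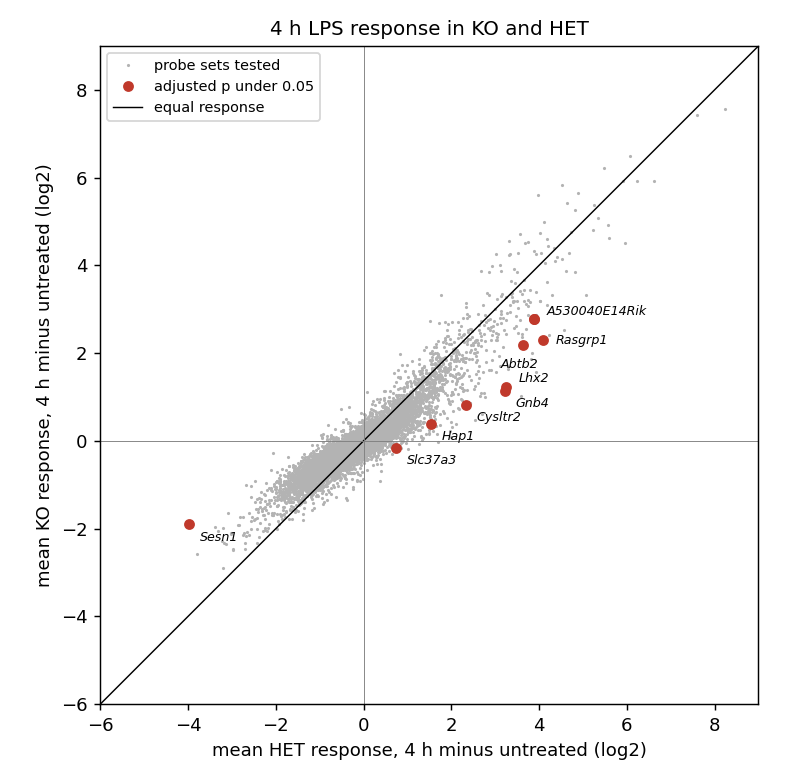
Mean 4 h response (log2) of 21137 probe sets in KO (vertical axis) and in HET (horizontal axis), with the called probe sets in red and a line of equal response. Most of the probe sets lowered at least 2-fold lie above the line and most of those raised lie below it; Sesn1 is the called probe set above the line and the others lie below.

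The list of 10 depended on the cultures used and on the processing. Sesn1 kept its call in 4 of the 6 fits that left out 1 culture; Lhx2 and Cysltr2 kept it in 2 and the other called probe sets in 1, with adjusted p up to 0.313 where it was lost, while the differences themselves kept their direction. All of the 10 remained among the 41 probe sets called without HET culture 1 (0.194%). Pairing numbers across genotypes called 0 probe sets (limma; 1686 were higher and 927 lower at an unadjusted p under 0.05). Leaving out dim probe sets called 0 as lower in KO (670 at an unadjusted p under 0.05), with an adjusted p of 0.0565 for Gnb4, Lhx2, Rasgrp1, Abtb2, Hap1, Slc37a3 and A530040E14Rik. A fit of all 18 arrays with culture as a term, which draws its spread from the 2 h arrays too, called 91 probe sets (0.431%), 47 higher and 44 lower. Among them were 7 of the 10, without Sesn1 and the pair of A530040E14Rik probe sets. Among its higher calls were Gnl3 (1.57), Cx3cr1 (1.69) and, named after their values were seen, the ribosome assembly factor Tsr1 (1.26) and Hibch (0.92), an enzyme of valine breakdown. Among its lower calls were the lysophosphatidic acid receptor Lpar1 (−1.61), the vascular growth factor Angpt1 (−1.31) and the Il23 receptor subunit Il23r (−1.45). These 3 were named after their values were seen. Lpar1 responded by 0.76, 0.66 and 0.91 in KO and by 1.89, 2.64 and 2.63 in HET. Angpt1 and Il23r were dim probe sets, at percentiles 7.35 and 27.6 of mean signal. In the fit of the 6 responses, the adjusted p was 0.0664 for Lpar1, 0.0693 for Angpt1 and 0.0831 for Il23r (limma).

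Few genes of the cascade upstream differed at the unadjusted threshold. Of 21 measured members of the Tlr4 receptor and its signalling, 1 was higher and 1 lower in KO at an unadjusted p under 0.05, the kinase adaptors Tab1 (0.46) and Tab2 (−0.29), and none passed the adjusted test. Cd14, the LPS co-receptor, responded by 0.92, 1.02 and 0.81 in KO and by 0.59, 1.12 and 0.91 in HET, a difference of 0.04 (95% confidence interval −0.30 to 0.38), so that a difference beyond 0.38 log2 units lay outside the interval. Of 14 NF-kB subunits and inhibitors 1 was lower, Rel (c-Rel), at 1.31, 1.16 and 1.18 in KO and 1.76, 1.6 and 1.56 in HET. The difference was below 0 for 12 of these 14 and for 8 of the 21 Tlr4 members, against 53.2% of all probe sets. The median difference over the NF-kB list was −0.10 and over the Tlr4 list 0.04, against −0.02 over all probe sets; without HET culture 1 they were −0.157, with 2 members lower, and −0.0337. The difference of Tab1 was then 0.28 and that of Cd14 −0.0988.

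The immediate early transcription factors were split, with 4 of 22 higher and 4 lower in KO (18.2% each) and none called. Myc, which drives cell growth, responded by −0.75, 0.06 and −0.12 in KO and by −2.74, −2.45 and −0.99 in HET. Its difference of 1.79 had an adjusted p of 0.194 (limma). Egr1, a zinc-finger factor induced by growth signals, responded by 0.20, 0.21 and −0.27 in KO and by 0.55, 0.80 and 1.23 in HET. Fos, a subunit of AP-1, was named after its values were seen; it responded by 0.27, 0.02 and 0.51 in KO and by −1.26, −0.43 and −0.24 in HET, with a difference of 0.91 (0.60 without HET culture 1) and an adjusted p of 0.233.

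Of 22 inflammatory cytokines none was higher and 6 were lower at an unadjusted p under 0.05 (27.3%), with a median difference of −0.19 and none called. Of all probe sets raised at least 2-fold, 31.6% were lower in KO. The cytokines, and the feedback regulators and late effectors described below, did not exceed that share when HET culture 1 was included. Without it the share was 30.1%. The feedback regulators (7 of 19 lower) and late effectors (10 of 30) then exceeded it, and the cytokines (5 of 22) did not. Edn1, the vasoactive peptide endothelin 1, responded by 4.66, 4.16 and 4.71 in KO and by 6.01, 5.61 and 6.23 in HET, a difference of −1.45 (adjusted p = 0.0831, limma). Tnfsf15, a TNF family ligand, responded by 3.67, 2.97 and 3.34 in KO and by 4.05, 4.40 and 4.46 in HET. The cytokines Il6, Il27 and Inhba were named after their values were seen. Il6 responded by 8.02, 6.92 and 7.72 in KO and by 8.33, 8.12 and 8.24 in HET; Il27 and Inhba differed by −1.09 and −1.56 with adjusted p of 0.22 and 0.212. Among the chemokines 4 of 23 were higher and 1 was lower in KO, with a median difference of 0.13 and 16 above 0, and the neutrophil attractant Cxcl2 at 6.35, 5.54 and 5.62 in KO and 3.40, 5.03 and 5.14 in HET. The difference of Cxcl2 was 1.31, and 0.75 without HET culture 1, when 2 chemokines were higher and the median was 0.0407. In level, the median KO minus HET difference over the chemokines was −0.136 in untreated cells and −0.0326 at 4 h. Without HET culture 1 these were −0.0781 and −0.0745. For Cxcl2 the level differed by −0.905 in untreated cells and by 0.408 at 4 h.

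The feedback regulators of the response had more lower than higher members, with 6 of 19 lower (31.6%) and 2 higher in KO and a median difference of −0.39 (7 lower and 1 higher without HET culture 1). Sbno2, a corepressor induced by Il10 signalling, responded by 0.21, 0.11 and −0.02 in KO and by 1.20, 0.90 and 0.58 in HET. Dusp16, a phosphatase of MAP kinases, responded by 2.15, 2.31 and 2.01 in KO and by 2.82, 2.52 and 2.69 in HET. The anti-inflammatory cytokine Il10 itself, named after its values were seen, responded by 3.19, 1.67 and 2.38 in KO and by 5.05, 4.27 and 3.36 in HET, a difference of −1.81 (SE 0.48, adjusted p = 0.208, limma). Among late effectors 7 of 30 were lower (23.3%) and 3 higher, and without HET culture 1 10 were lower and 2 higher. Nos2, the inducible nitric oxide synthase, responded by 6.09, 5.68 and 5.99 in KO and by 6.62, 6.68 and 6.56 in HET, whereas the scavenger receptor Marco responded by 0.97, 1.00 and 0.89 in KO and by 0.26, 0.36 and 0.52 in HET. F3, the coagulation initiator tissue factor, and Ptgs2, the inducible cyclooxygenase, both named after their values were seen, differed by −2.58 and −0.96 with adjusted p of 0.15 and 0.201.

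In the interferon arm, more regulators were lower than higher in KO, though most were neither, and more targets were higher than lower. The contrast between these lists was not tested. Of 23 interferons, IRF and STAT factors, 6 were lower (26.1%) and 1 higher in KO; the interferon receptor kinase Jak2 responded by 2.17, 1.90 and 2.03 in KO and by 2.68, 2.63 and 2.47 in HET. Batf2 responded by 2.95, 2.41 and 2.92 in KO and by 3.74, 3.64 and 3.31 in HET. The median difference over the list was −0.135. Irf7, named after its values were seen, went the other way, with a difference of 0.97 (adjusted p = 0.265, limma) and 0.61 without HET culture 1. Its KO minus HET level was −1.36 in untreated cells and −0.38 at 4 h. Of 39 type I interferon targets, 15 were higher (38.5%) and none lower, 36 had a difference above 0, and the median difference was 0.40, although no member was called. These genes started lower in untreated KO cells, with a median difference of −0.82, and a median difference of −0.30 at 4 h; without HET culture 1 these were −0.569 and −0.208, the KO level being the lower one at both times. Oasl2, an antiviral protein of the oligoadenylate synthase family, gained 1.80, 2.30 and 1.39 in KO and 0.93, 1.10 and 1.25 in HET, and its KO minus HET difference was −1.10 in untreated cells and −0.37 at 4 h. Without HET culture 1, 4 of the 39 were higher and 1 was lower, with a median difference of 0.33. The interferon-induced GTPases were split, with 2 of 8 higher, among them Gbp7 (0.77), and 3 lower, among them Gbp9 (−0.48).

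Several groups of genes that LPS lowers had higher responses in KO. Of all probe sets lowered at least 2-fold, 53.2% were higher in KO at the same unadjusted p. The ribosome, cholesterol and cell cycle lists did not exceed that share, but most of their median responses were under 2-fold. These medians were −0.212 in KO and −0.605 in HET for ribosome biogenesis, −0.471 and −0.989 for cholesterol, and −0.624 and −1.04 for cell cycle. Of the probe sets neither raised nor lowered 2-fold, 7.27% were higher in KO. A comparison with genes lowered to a like degree was not made. Of 25 ribosome biogenesis genes, 13 had a higher response in KO (52%) and none a lower one, with a median response of −0.269, −0.171 and −0.203 in the KO cultures and −1.16, −0.445 and −0.510 in the HET cultures. Nop58, a core protein of small nucleolar ribonucleoproteins, responded by −0.46, −0.20 and −0.15 in KO and by −1.19, −0.88 and −0.76 in HET. Tsr1, Wdr12 and Nop56, which act in ribosome assembly and were named after their values were seen, differed by 1.26, 1.13 and 0.74, with adjusted p of 0.131, 0.201 and 0.208. No member was called, and without HET culture 1 the list had 10 higher members and a median difference of 0.20, against 0.44 with it.

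Sterol synthesis followed the same direction. All 18 measured genes of cholesterol synthesis and uptake had a difference above 0, 7 of them at an unadjusted p under 0.05 (38.9%), and the median was 0.48. Fdft1, squalene synthase, responded by −0.39, −0.15 and −0.59 in KO and by −1.90, −0.92 and −0.96 in HET, and Mvd, a decarboxylase of the mevalonate pathway, by −0.44, −0.48 and −0.53 in KO and by −1.14, −0.97 and −0.84 in HET. The median was 0.25 without HET culture 1, with 6 members higher. Untreated cells of the genotypes differed by a median of −0.00247 over this list, and 4 h cells by 0.395; without HET culture 1 these medians were 0.160 and 0.406.

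Cell cycle genes had levels that rested on HET culture 1: the median KO minus HET difference in level was 0.83 in untreated cells and 0.95 at 4 h with it, and −0.131 and 0.195 without it. Untreated Cdk1, a mitotic kinase gene named after its values were seen, was at 12.32, 12.33 and 12.33 in KO and at 9.57, 12.45 and 12.50 in HET. The difference in the response was above 0 for 28 of 35 members, with 9 higher at an unadjusted p under 0.05 (25.7%), none lower and a median of 0.35. Cenpa, the centromeric histone, responded by −0.61, −0.68 and −0.58 in KO and by −1.34, −1.07 and −1.19 in HET. Cdk1 responded by −0.41, −0.39 and −0.42 in KO and by −0.93, −0.78 and −0.79 in HET. Without HET culture 1, 21 of the 35 were higher, with a median of 0.37. Of the 17 p53 targets, 5 were higher and Sesn1 was called, with a median over the list of 0.17.

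**Figure D5:**
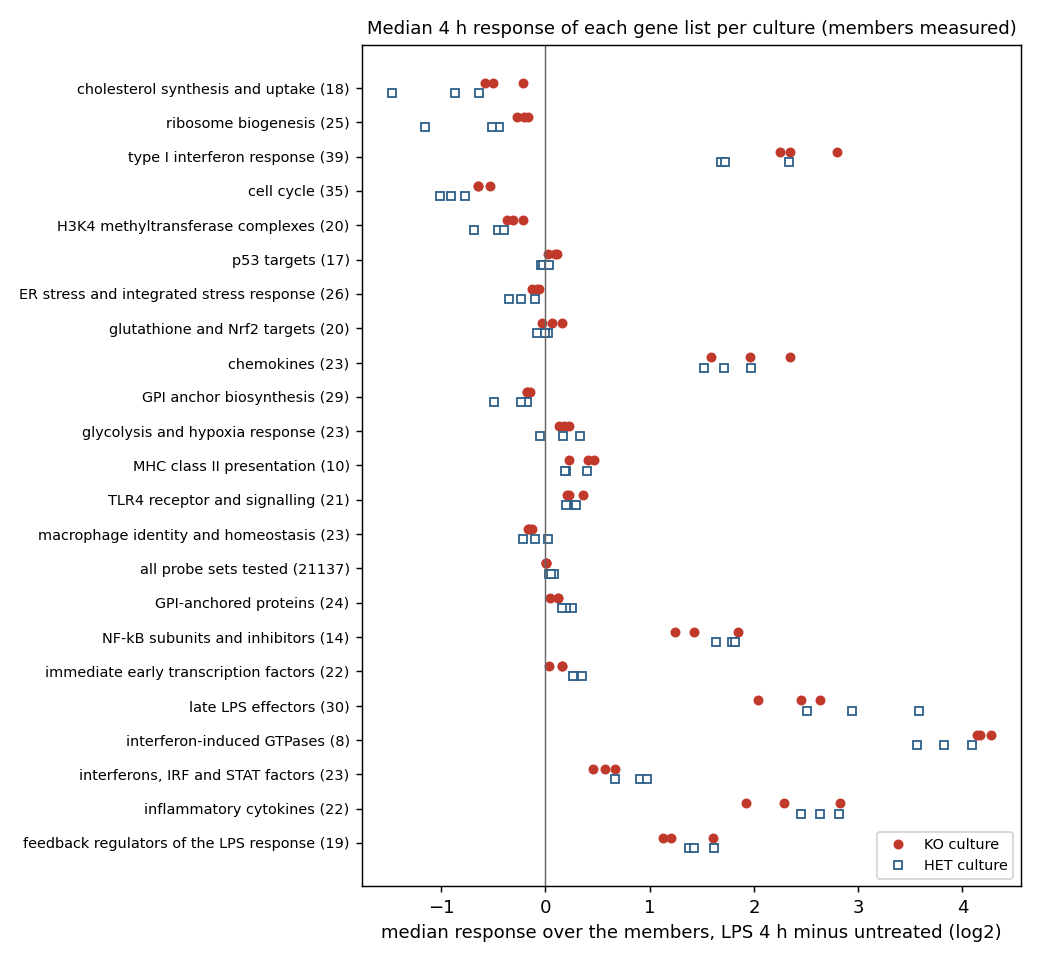
Median 4 h response (log2) over the measured members of each gene list except the markers of other cells, one point per culture, KO in filled circles above HET in open squares, with the number of members in brackets. Ribosome biogenesis and cholesterol genes lie nearer 0 in every KO culture than in any HET culture, whereas the cytokine, chemokine and NF-kB lists overlap between the genotypes.

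Genes of H3K4 methyltransferase complexes in general, not only those of Wbp7, and of the GPI pathway were examined next. Of 20 members of the H3K4 methyltransferase complexes, 5 were higher and 1 lower, with a median difference of 0.22 (0.11 without HET culture 1, with 3 higher and 2 lower) and the shared core subunit Wdr5 at −0.20, −0.27 and −0.48 in KO and −1.06, −0.60 and −0.91 in HET. The related methyltransferase Kmt2a, named after its values were seen, was the one lower, at −0.28. The Kmt2b response differed by 0.15 (95% confidence interval −0.11 to 0.42), and by 0.0731 without HET culture 1. Pigp, part of the enzyme complex for the first step of GPI anchor synthesis, had 2 probe sets. One of them read 5.42, 4.58 and 5.34 in untreated KO cells and 9.01, 9.52 and 9.28 in untreated HET cells. Its response differed by 0.67 (95% confidence interval −0.46 to 1.80), with scattered KO responses of −0.74, 1.07 and −1.03 at a low KO signal. The other Pigp probe set differed far less in level, with 8.34, 8.56 and 8.40 in untreated KO cells and 8.98, 8.93 and 9.07 in untreated HET cells. Its response differed by 0.06 (−0.27 to 0.38), and by 0.136 without HET culture 1. Of 29 GPI biosynthesis genes 1 was higher (Pigg) and 1 lower (Pigv), with 2 higher once HET culture 1 was left out. The difference was above 0 for 25 of the 29, with a median of 0.125, and of 0.0556 without HET culture 1. Of 24 GPI-anchored proteins 3 were lower, led by the prion protein gene Prnp at 0.60, 0.61 and 0.86 in KO and 1.88, 1.34 and 1.55 in HET.

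Of 23 macrophage identity genes 1 was higher and 2 were lower in KO; none was lower without HET culture 1. Cx3cr1, the fractalkine receptor, responded by −1.17, −0.87 and −0.94 in KO and by −3.53, −2.20 and −2.33 in HET, a difference of 1.69 (adjusted p = 0.149, limma). Its difference was 1.28 without HET culture 1 and then passed the test (adjusted p = 0.0299). Among other metabolic lists, the glycolytic activator Pfkfb3 responded by 2.21, 1.5 and 2.11 in KO and by 3.23, 3.28 and 2.74 in HET, and the glutathione enzyme gene Gclc by −1.55, −0.82 and −1.59 in KO and by −3.06, −2.32 and −1.6 in HET. Of the remaining lists, 3 of 26 ER stress genes were higher and none lower, led by Herpud1 (0.71), and 5 of 20 glutathione and Nrf2 genes were higher and none lower, among them Hmox1 (0.62). The 23 glycolysis and hypoxia genes had 4 higher and 3 lower, and none of the 10 genes of MHC class II presentation was either. When HET culture 1 was left out, the glutathione and Nrf2 list kept 1 higher gene, with a median of 0.0588 in place of 0.146, and the ER stress list 2, with a median of 0.0660 in place of 0.147. Among markers of other cell types, 3 of 12 dendritic cell markers were lower and none higher (10 below 0), 2 of 18 neutrophil markers were lower and none higher (14 below 0), among them Csf3r (−0.67, and −0.39 without HET culture 1), and 3 of 11 erythroid and megakaryocyte markers were higher and none lower. Of 15 stromal markers 1 was lower, and none of 16 lymphocyte or 10 mast cell markers was either. Without HET culture 1 there were 2 lower dendritic cell markers, 1 lower neutrophil marker, 2 higher erythroid and megakaryocyte markers and no lower stromal marker. The median differences of these 6 lists lay between −0.222 and −0.0417, and between −0.121 and −0.0164 without HET culture 1; the neutrophil markers averaged 8.60 to 8.80 at 4 h in KO and 8.43 to 8.68 in HET, and their part in the results was not tested.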

How the data were processed

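Gene expression was measured on 18 Affymetrix arrays, and the 12 arrays of untreated and 4 h cells entered the comparison, with the 2 h arrays used for values beside it and in alternatives. The authors deposited log2 signals, 1 per probe set and array, computed with RMA in Partek 6.5, per the submitters' processing notes; RMA corrects background, normalizes arrays by quantiles and summarizes probes, so that a shift shared by all genes is removed. They were used as deposited, and array medians lay between 8.05 and 8.13. Arrays carry no count or depth, and their number limits the precision. Of 25344 probe sets, the platform's table gave a gene for 22667; those with several genes (1530) or none (2677) were left out. No column was left unused.

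The 6 responses were fitted with limma 3.58.1 in R 4.3.3 (4 residual degrees of freedom, prior degrees of freedom 3.62), with p-values adjusted by Benjamini-Hochberg over all 21137 probe sets. The code was tested on simulated data. Response size was compared by a two-sided exact permutation test over cultures. Same-numbered arrays deviated together within a genotype (r 0.417 to 0.622) and not across genotypes (−0.345 to 0.247), and the number was used as a culture within genotype. Figures used Python 3.11.15 and matplotlib 3.10.9. Promoters are from RefSeq.

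The comparison and its gene lists were chosen with earlier results of these data known. Named were Kmt2b, Pigp and Cd14, the called probe sets (up to 15 per direction), otherwise the smallest p up to 10 per direction, passing over gene models without an established name, and every called or else the 2 smallest-p members of each list. Alternatives were other blocks and array sets, median centring, quantile normalization, dim probe sets (under percentile 40) left out, other treatments of probe sets of a gene, another prior, array weights, a 2-fold minimum, other minimum responses, and each culture left out. The list levels without HET culture 1 were an alternative chosen after seeing the data.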

Additional observations from a re-analysis of the deposited data

Results flagged for a closer look

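The difference between the genotypes in the 4 h response was itself tested and passed for 10 probe sets, given as KO minus HET on the log2 scale (limma). It was 2.08 for Sesn1. It was −2.08 for Gnb4, −2.03 for Lhx2, −1.79 for Rasgrp1, −1.51 for Cysltr2, −1.43 for Abtb2, −1.15 for Hap1 and −0.911 for Slc37a3. It was −1.09 for the called pair of A530040E14Rik probe sets, which hold the same values on all arrays and count as 1 measurement. Another, brighter probe set of this gene was at −1.01 and did not pass (adjusted p = 0.168, limma with 1 probe set per gene). Groups of 3 were too small for a test of single outlying arrays.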

How the results depend on the processing

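With 3 cultures per genotype, the count of called probe sets (1 higher and 9 lower in KO) moved most with the processing, and the cause was not tested beyond each alternative's construction. The number of arrays limits every count here.

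For the replicate block and the pairing: with no replicate block (12 arrays as 4 groups) 0 probe sets were called higher and 7 lower, with 945 higher and 639 lower at an unadjusted p under 0.05, and 3825 raised on average. Pairing replicate numbers across genotypes left 0 higher and 0 lower called, with 1686 and 927 at an unadjusted p under 0.05. With all 18 arrays and the block within genotype 47 were higher and 44 lower; as 6 groups with no block, 919 higher and 594 lower had an unadjusted p under 0.05 and 3961 were raised. Without HET replicate 1 in the 18-array fit, an alternative chosen after seeing the data, 154 were higher and 83 lower.

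Quantile normalization gave 3929 raised on average. Leaving out dim probe sets gave 0 called lower, 670 lower at an unadjusted p under 0.05 and 3351 raised. The intensity trend with a robust prior called 3 higher and 19 lower, and array weights 15 and 28. A 2-fold minimum left 59 higher and 92 lower at an unadjusted p under 0.05, and 779 raised and 697 lowered on average.

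With each culture left out, the calls ranged from 0 to 12 higher and 0 to 29 lower, unadjusted p under 0.05 from 1022 to 2203 higher and 776 to 1511 lower, average responses from 4023 to 5527 raised and 5101 to 5933 lowered. The difference in size ranged from −0.351 to −0.213 over raised and 0.409 to 0.588 over lowered probe sets and kept its direction in all alternatives run.

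The direction of 2 genes that did not pass the test turned. Pigp, on the probe set at 0.06, was at −0.133 with quantile normalization, and between −0.034 and 0.17 with 1 culture left out (below 0 without KO replicate 1, −0.0181, and without HET replicate 3). Cd14, at 0.04, was at −0.0353 with array weights and −0.0988 in the 18-array fit without HET replicate 1, and between −0.0988 and 0.165 with 1 culture left out (below 0 without KO replicate 2, −0.0091, and without HET replicate 1).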
